A study of Mus musculus with 2 samples.

Results

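The mouse beta-globin locus was described here in DNase-seq peak lists from 2 states of an erythroid cell system. It holds the embryonic genes Hbb-y and Hbb-bh1, the adult genes Hbb-b1 and Hbb-b2, and the locus control region upstream of Hbb-y, with olfactory receptor genes on either side. Peaks belonged to the locus when their summit lay in chr7:110930000-111080000 of mm9, and 44 of the 400000 peaks in all 4 lists did so. The choice of peaks used position alone, without peak height. DNase-seq maps hypersensitive sites, stretches of chromatin where the nuclease DNase I can reach the DNA.

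The G1E-ER4 sample came from G1E-derived cells in which Gata1, a transcription factor required for red cell maturation, is restored and activated by estradiol. These cells were harvested after 24 h with 10 nM beta-estradiol. The G1E sample came from the parental erythroid progenitor line, which lacks Gata1, and was not treated. For both lines the labels give strain 129, male sex and embryonic day 0 (stem cell). There was 1 sample per state, each with 2 peak lists, and no test between the states was possible. Whether both lists of 1 sample represent independent cultures is not stated in the labels, and their spread may be purely technical. Neither untreated G1E-ER4 cells nor estradiol-treated G1E cells are among the samples, so cell line, restored Gata1, estradiol and sample cannot be told apart.

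Each list held 100000 peaks, each with the authors' F-seq density signal. The median signal was 0.0391 and 0.0554 in the G1E-ER4 lists, compared with 0.0352 and 0.0368 in the G1E lists, and no scaling between lists is stated. A peak is therefore given by its percentile within its own list, where 100 is the strongest peak. Read depth is unknown, and no counting interval could be given. The 2 G1E-ER4 lists were less alike than the 2 G1E lists. At the 22902 sites of the genome that all 4 lists held, the median gap between percentiles was 7.34 points between the G1E-ER4 lists and 3.44 points between the G1E lists. As a check of the labelled cell type, 5 erythroid genes were examined for a peak within 1000 bp of a start. Tal1, Gata1, Epor and Slc4a1 had one in all 4 lists, and Klf1 had one in G1E-ER4 list 1 and G1E list 2. Over the 22380 protein-coding genes, 54.8% and 64.2% had one in the G1E-ER4 lists, compared with 62% and 56.7% in the G1E lists. Start peaks were thus common at all genes, and the check cannot settle the cell type.

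Beta-like globin genes encode the beta chains of haemoglobin. Hbb-y and Hbb-bh1 are used by the primitive red cells of the early embryo, and the adult genes by definitive red cells. The control region is a cluster of hypersensitive sites that is needed for high-level transcription of the linked genes and that bears binding words for GATA factors, for NF-E2 and for E-box factors. The adult promoter carries a CACCC box, the binding site of Klf1. Throughout, positions are given in kb from the start of Hbb-y, and since all the globin genes lie on the minus strand, upstream means toward higher coordinates.

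The sequences at which the 4 lists were compared are shown first. The promoters are the 250 bases before the RefSeq start (table of GRCm38.p6), each found by exact match in mm9 and printed 5′ to 3′ on the minus strand. Capitals mark the GATA words (AGATAA or its variant TGATAA, also ending in G as AGATAG or else as TGATAG), the NF-E2 word GCTGAGTCA, the AP-1 word TGANTCA and the KLF word CCACACCC, each on either strand. RefSeq names the gene at Hbb-b1 as Hbb-bs and the gene at Hbb-b2 as Hbb-bt, and the GENCODE names are used here.
Hbb-b1 promoter, chr7:110976443-110976692: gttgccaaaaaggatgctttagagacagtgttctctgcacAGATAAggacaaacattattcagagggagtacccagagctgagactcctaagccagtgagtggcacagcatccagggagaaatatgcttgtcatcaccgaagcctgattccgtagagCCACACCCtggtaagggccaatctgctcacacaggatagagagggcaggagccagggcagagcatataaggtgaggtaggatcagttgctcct
Hbb-b2 promoter, chr7:110962438-110962687: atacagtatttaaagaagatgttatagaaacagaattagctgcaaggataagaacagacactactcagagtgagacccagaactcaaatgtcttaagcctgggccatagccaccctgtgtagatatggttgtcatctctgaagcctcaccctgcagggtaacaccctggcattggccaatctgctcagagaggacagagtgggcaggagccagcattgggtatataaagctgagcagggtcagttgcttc
Hbb-y promoter, chr7:111001722-111001971: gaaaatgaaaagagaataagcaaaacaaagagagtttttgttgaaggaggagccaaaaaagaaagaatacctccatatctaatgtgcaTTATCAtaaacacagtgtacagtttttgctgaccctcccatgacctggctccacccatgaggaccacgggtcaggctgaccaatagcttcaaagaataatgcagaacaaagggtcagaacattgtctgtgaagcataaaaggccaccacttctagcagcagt
The Hbb-b1 promoter has a CACCC box in the searched form and a GATA word farther upstream. The Hbb-b2 promoter has none of the words, and the Hbb-y promoter has 1 GATA word. These are the bases of mm9, and the strain of the cells may differ from it here.

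Of the 6 control region sites, 5 are shown as 200 bases of mm9 centred on the site, printed on the minus strand with the same capitals. They are the 5 that at least 2 lists held.
6.0 kb site, chr7:111007698-111007897: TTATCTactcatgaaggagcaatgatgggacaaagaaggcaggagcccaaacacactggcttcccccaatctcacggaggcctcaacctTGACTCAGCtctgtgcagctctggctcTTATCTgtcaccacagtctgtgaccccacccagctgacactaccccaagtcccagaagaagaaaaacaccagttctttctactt
7.9 kb site, chr7:111009524-111009723: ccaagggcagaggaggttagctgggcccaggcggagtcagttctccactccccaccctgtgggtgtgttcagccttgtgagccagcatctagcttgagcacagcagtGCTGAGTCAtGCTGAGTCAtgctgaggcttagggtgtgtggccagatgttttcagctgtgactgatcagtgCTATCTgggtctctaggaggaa
12.7 kb site, chr7:111014334-111014533: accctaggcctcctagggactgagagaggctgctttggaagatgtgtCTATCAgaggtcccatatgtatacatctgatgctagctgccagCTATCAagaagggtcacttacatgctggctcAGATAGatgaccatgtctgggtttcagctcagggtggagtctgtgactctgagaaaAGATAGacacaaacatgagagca
17.6 kb site, chr7:111019298-111019497: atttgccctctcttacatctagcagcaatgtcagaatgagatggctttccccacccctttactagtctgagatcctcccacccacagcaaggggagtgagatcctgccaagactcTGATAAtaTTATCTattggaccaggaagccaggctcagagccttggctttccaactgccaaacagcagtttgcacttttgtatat
24.1 kb site, chr7:111025730-111025929: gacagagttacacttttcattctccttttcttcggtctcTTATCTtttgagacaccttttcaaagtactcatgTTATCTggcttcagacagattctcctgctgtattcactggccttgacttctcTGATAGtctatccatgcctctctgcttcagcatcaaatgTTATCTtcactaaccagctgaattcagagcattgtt
The NF-E2 word, which contains the AP-1 word, occurs once at 6.0 kb and 2 times in tandem at 7.9 kb. Tandem NF-E2 words are a known feature of site HS2 of beta-globin control regions.

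Of the sites held by both lists of at least 1 state, the largest difference lay at the adult gene Hbb-b1 (chr7:110975048-110976610 in GENCODE), one of the 2 adult beta chains. In the G1E-ER4 lists its start carried a peak at percentiles 92.9 and 90.9, while G1E list 1 listed none and G1E list 2 listed one at percentile 61.7. Both G1E-ER4 values lay above both G1E lists. With an unlisted peak set at 0, the means were 91.9 in G1E-ER4 and 30.9 in G1E, a difference of 61.1 points. Leaving out G1E list 1, which lists no peak there, brought the difference to 30.2 points, and leaving out G1E list 2 to 91.9 points. Of the 57999 sites of the genome that both lists of at least 1 state held, 2.41% had a difference this large or larger.

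The Hbb-b1 peaks covered the promoter and the front of the gene. They spanned chr7:110976177-110976859 and chr7:110975736-110976805 in the G1E-ER4 lists, and chr7:110975618-110976776 in G1E list 2. Their ranks among the 100000 peaks were 7071 and 9066 in the G1E-ER4 lists and 38266 in G1E list 2. The summits were 119 and 64 bp upstream of the RefSeq start in the G1E-ER4 lists and 129 bp upstream in G1E list 2, so all 3 lay inside the promoter sequence printed above. The summits fell in the first exon of Hbb-b1 in GENCODE, whose start lies farther upstream than that of RefSeq. In G1E list 1 the nearest summit was 20695 bp from the gene's start.

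The other adult gene, Hbb-b2 (chr7:110961038-110962510), gave no such separation. Its start had a peak at percentile 77.2 in G1E-ER4 list 2 and none in G1E-ER4 list 1, against a peak at 29.2 in G1E list 2 and none in G1E list 1. The means were 38.6 in G1E-ER4 and 14.6 in G1E, a difference of 24 points that turned to -14.6 without G1E-ER4 list 2. The 2 peaks were also at different places: the G1E-ER4 summit was 82 bp downstream of the RefSeq start, in an exon, and the G1E summit 596 bp downstream, in an intron. Downstream of Hbb-b2, G1E list 2 alone held 3 further peaks, 41.0, 41.5 and 43.5 kb from Hbb-y at percentiles 71.6, 70.9 and 51.1. Between the adult genes, 28.4 kb from Hbb-y, a weak peak stood at percentile 3.3 in G1E-ER4 list 1 and 19.9 in G1E list 2.

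Neither embryonic gene had a listed peak at its start in either state. Around Hbb-y (chr7:111000259-111001754) the nearest summits were 6043 and 6034 bp away in the G1E-ER4 lists, compared with 6045 and 6051 bp away in the G1E lists, and these belonged to the 6.0 kb site of the control region. For Hbb-bh1 (chr7:110990150-110991678) the nearest summits were 15079 and 15134 bp away in the G1E-ER4 lists, compared with 16121 and 1585 bp away in the G1E lists. The last of these was a peak of G1E list 2 alone, at percentile 69.0, upstream of Hbb-bh1 and the only peak among the embryonic genes. Hbb-bh2 and the pseudogenes Hbb-bh0 and Hbb-bh3 also had no start peak, so 2 of the 7 globin genes and pseudogenes had one in any list, both adult. Over the 22380 protein-coding genes, 54.8% and 64.2% had a start peak in the G1E-ER4 lists, compared with 62% and 56.7% in the G1E lists.

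**Figure D1:**
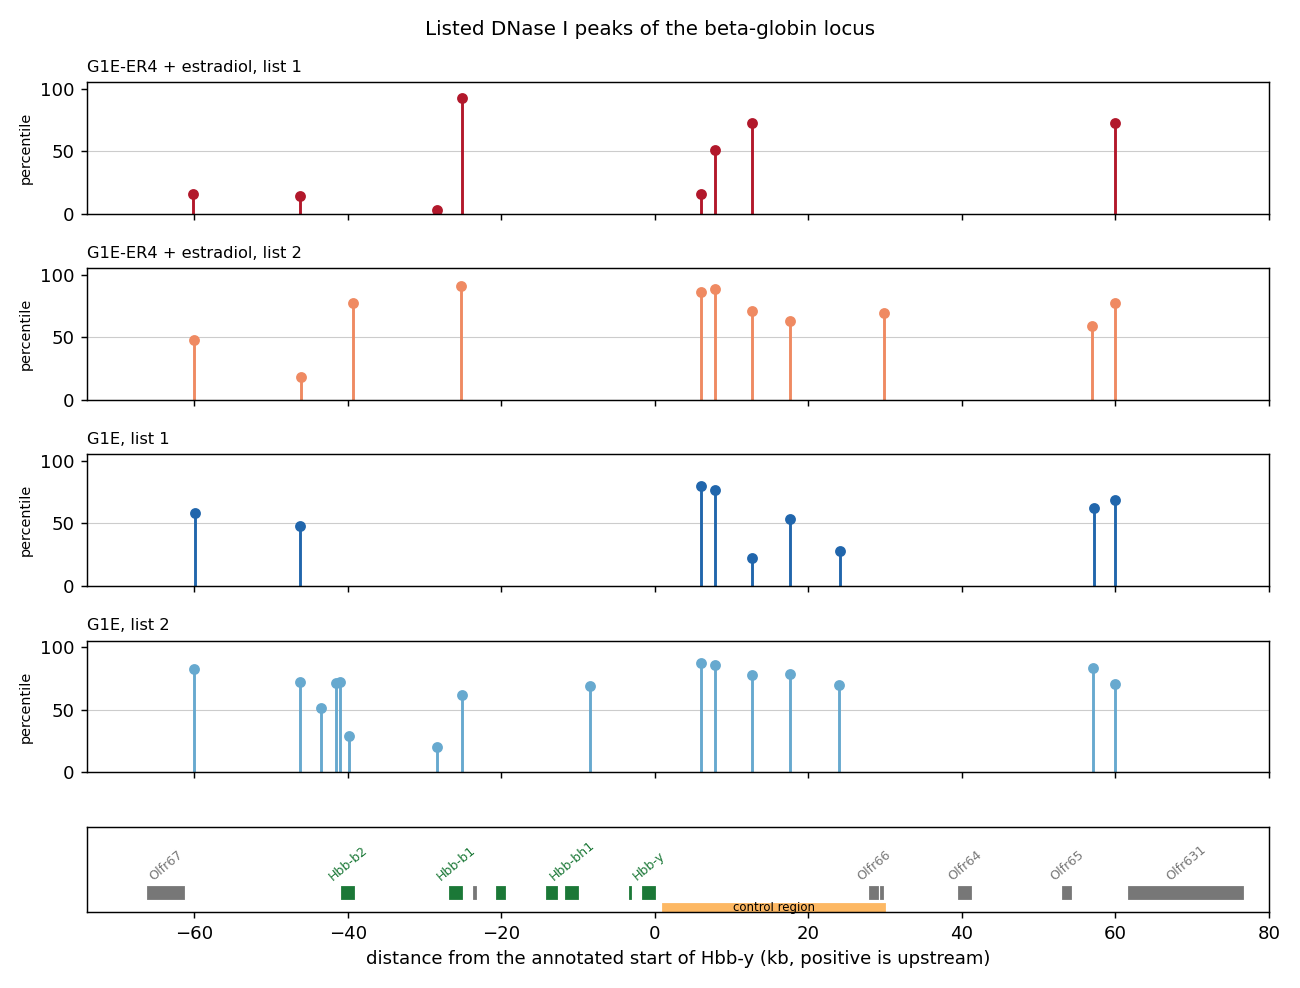
Percentile of each listed peak within its own list (vertical axis, 0 to 100) against the distance of its summit from the Hbb-y start in kb (horizontal axis, positive upstream), for G1E-ER4 lists 1 and 2 above G1E lists 1 and 2, with the genes at the bottom; the grey line marks percentile 50. The Hbb-b1 peak reaches 92.9 and 90.9 in the G1E-ER4 lists and 61.7 in G1E list 2, and no peak stands at Hbb-y in any list.

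The control region, taken as 1 to 30 kb upstream of the Hbb-y start, held 3 and 5 peaks in the G1E-ER4 lists and 5 in each G1E list. These 18 peaks formed 6 sites when summits within 300 bp were joined. Sites at 6.0, 7.9 and 12.7 kb were in all 4 lists, so the control region was hypersensitive in G1E cells without Gata1 as well as in G1E-ER4 cells. Summits were close together between lists, with spreads of 17, 45 and 36 bp at these 3 sites.

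At the 6.0 kb site the percentiles were 15.6 and 86.3 in the G1E-ER4 lists, compared with 79.8 and 86.9 in the G1E lists. At the 7.9 kb site they were 50.8 and 88.7 in the G1E-ER4 lists, compared with 76.8 and 85.9 in the G1E lists. G1E-ER4 list 1 was the lowest at both sites and G1E-ER4 list 2 lay among or above the G1E lists, so the states overlapped. At 12.7 kb the percentiles were 72.7 and 71.4 in the G1E-ER4 lists, compared with 22.4 and 77.4 in the G1E lists, and here G1E list 1 was the low one. No direction between the states held over all lists at these 3 sites.

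Farther upstream the peaks were less often listed. The 17.6 kb site was missing from G1E-ER4 list 1 and stood at 63.1 in G1E-ER4 list 2, against 53.7 and 78.1 in the G1E lists. The 24.1 kb site was in neither G1E-ER4 list and stood at 28.1 and 69.2 in the G1E lists. It was the only site of the locus held by both lists of one state and neither list of the other. The farthest site, at 29.8 kb, was in G1E-ER4 list 2 alone at percentile 69.4, and it lay 838 bp from the start of the olfactory receptor gene Olfr66 and 75 bp from that of the pseudogene Gm15118.

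The median difference over the 6 control region sites, G1E-ER4 minus G1E with unlisted peaks at 0, was -22 points. It rested on G1E-ER4 list 1. Without that list it was 5.13 points, and without G1E-ER4 list 2 it was -48.6 points. With all lists and the region ended at 25 kb, which leaves out the 29.8 kb site, the median was -32.4 points. Single sites ran between -48.6 points at 24.1 kb and 34.7 points at 29.8 kb.

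**Figure D2:**
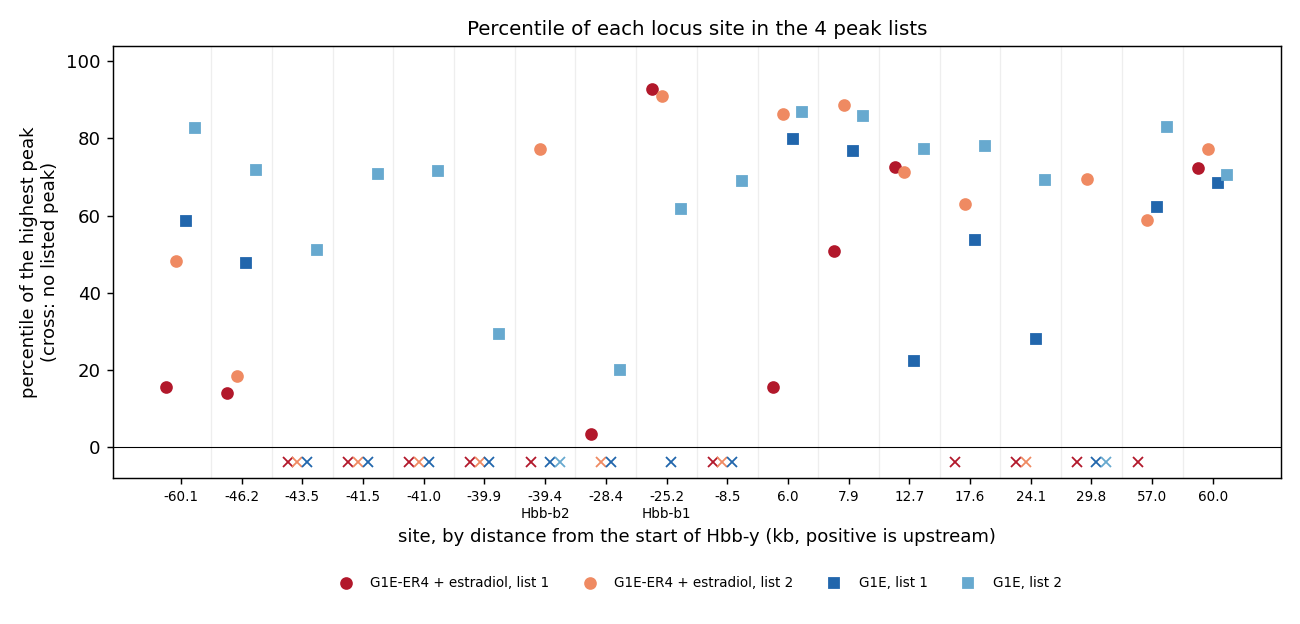
Percentile within its list (vertical axis) of each of the 18 locus sites, ordered by kb from the Hbb-y start (horizontal axis, positive upstream), with G1E-ER4 lists 1 and 2 before G1E lists 1 and 2; crosses mark a list with no listed peak. At Hbb-b1 both G1E-ER4 points lie above the G1E point of 61.7, whereas at 6.0 and 7.9 kb G1E-ER4 list 1 is low, at 15.6 and 50.8, and the other 3 lists are high.

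The order of peaks inside a single list needs no scaling between lists. In both G1E-ER4 lists the strongest peak of the locus was that of Hbb-b1, and in both G1E lists it was the 6.0 kb site of the control region. The signal of the Hbb-b1 peak divided by that of the 6.0 kb peak was 4.64 and 1.91 in the G1E-ER4 lists and 0.327 in G1E list 2. For G1E list 1, where Hbb-b1 was not listed, the lowest signal of the list puts the ratio below 0.352, if the list was cut by signal. Against the 7.9 kb peak the ratios were 3.74 and 1.44 in the G1E-ER4 lists, compared with below 0.405 and 0.352 in the G1E lists. Against the 12.7 kb peak they were 2.73 and 4.27 in the G1E-ER4 lists, compared with below 0.909 and 0.578 in the G1E lists. For each of the 3 control region sites present in all lists, both G1E-ER4 ratios thus lay above 1 and the measured ratio of G1E list 2 below it. The bounds of G1E list 1 fall below 1 by construction, since an unlisted peak is set against a listed one, and they add no separate evidence.

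Over the whole window the lists held 8 and 11 peaks for G1E-ER4 and 9 and 16 for G1E. Windows of the same 150 kb over the genome held a median of 1 peak in each list. At least as many peaks as the locus were held by 23.3% and 19.3% of windows in the G1E-ER4 lists, compared with 20.9% and 13.2% in the G1E lists. The locus peaks formed 18 sites. Of these sites, 6 (33.3%) were in all 4 lists, against 9.14% of the 250601 sites of the genome. None of the 6 lay at a gene start: 3 were in the control region and 3 in the flanks. A further 7 sites (38.9%) were in a single list, against 66.5% of the genome's sites, 2 in G1E-ER4 list 2 and 5 in G1E list 2. The best locus peak of each list reached percentile 92.9 and 90.9 in the G1E-ER4 lists, compared with 79.8 and 86.9 in the G1E lists.

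Among these sites, 10 were held by both lists of at least 1 state. A site was called higher in G1E-ER4 when both G1E-ER4 lists held it and both percentiles lay above those of both G1E lists, an unlisted peak counting as below, and lower by the same rule reversed. The sites called higher were 2 (20%), beside 18.9% of such sites over the genome, and those called lower were 4 (40%), beside 33.5%. Called higher were Hbb-b1 and the flank site 60.0 kb upstream. Called lower were the 24.1 kb control region site and the flank sites 46.2 and 60.1 kb downstream and 57.0 kb upstream. None was in both G1E-ER4 lists alone, beside 8.46%, and 1 was in both G1E lists alone, beside 18.7%. The shares called higher and lower lay near those of the genome, but not near those of chromosome 7, at 35.8% higher and 22.6% lower. The counts depended on single lists: without G1E-ER4 list 1 there were 5 sites called higher, without G1E-ER4 list 2 there were 7 called lower, and without G1E list 1 there were 13 called lower. With a list left out, more sites can be called by construction. The share over the genome was not computed for these settings, so these counts cannot be set beside the shares above.

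**Figure D3:**
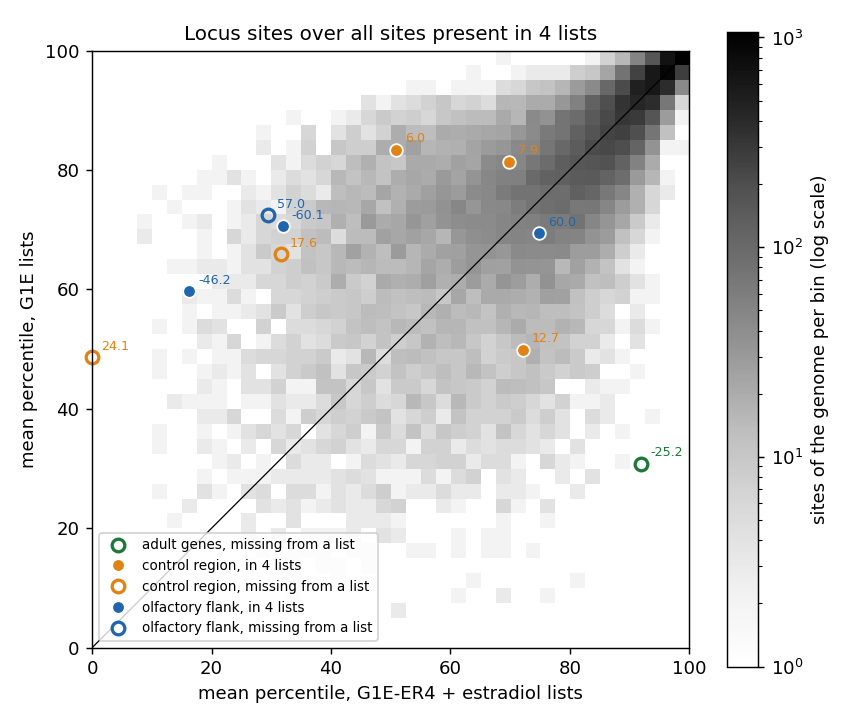
Mean percentile in the G1E-ER4 lists (horizontal axis) against mean percentile in the G1E lists (vertical axis), with grey for the number of the genome's 22902 sites in all 4 lists per bin (log scale) and circles for the 10 locus sites held by both lists of a state, labelled by kb from Hbb-y (negative downstream); open circles are missing from at least 1 list, which is set at 0. The Hbb-b1 site, at 91.9 and 30.9, lies farthest below the diagonal. Of the control region sites, that at 12.7 kb also lies below it, and those at 6.0, 7.9, 17.6 and 24.1 kb lie above it.

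The window holds 5 olfactory receptor genes, a family that is transcribed in nasal neurons. Of these only Olfr66 had a start peak, in G1E-ER4 list 2. Olfr66 starts inside the stretch taken as the control region, and its peak is the 29.8 kb site given above. No olfactory receptor gene of the flanks had a start peak. Start peaks were also rare at the 1113 olfactory receptor genes of the genome, at 0.898% and 1.35% in the G1E-ER4 lists, compared with 0.988% and 1.62% in the G1E lists. The 5 flank sites lay between genes, and 3 of them were in all lists. The site 60.0 kb upstream varied least between lists, at 72.3 and 77.3 in the G1E-ER4 lists, compared with 68.5 and 70.4 in the G1E lists, a difference of 5.35 points. The site 60.1 kb downstream stood at 15.6 and 48.2 in the G1E-ER4 lists, compared with 58.7 and 82.6 in the G1E lists. The site 46.2 kb downstream stood at 14.1 and 18.4 in the G1E-ER4 lists, compared with 47.6 and 71.8 in the G1E lists. The site 57.0 kb upstream was missing from G1E-ER4 list 1 and stood at 58.9 in G1E-ER4 list 2, against 62.1 and 82.9 in the G1E lists. The last flank site, 43.5 kb downstream, is the peak of G1E list 2 alone at 51.1 given above.

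The 3 flank sites in all lists were the locus sites with a match to the CTCF core motif, exact or with 1 mismatch. CTCF is a DNA-binding protein found at boundaries between chromatin domains, and its core motif was searched on both strands in the 200 bp around each site. The pieces below, on the minus strand of mm9, have the core in capitals.
60.1 kb downstream, chr7:110941594-110941643: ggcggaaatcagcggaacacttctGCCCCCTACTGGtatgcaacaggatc
46.2 kb downstream, chr7:110955564-110955623: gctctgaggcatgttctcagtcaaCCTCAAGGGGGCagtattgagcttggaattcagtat
60.0 kb upstream, chr7:111061670-111061729: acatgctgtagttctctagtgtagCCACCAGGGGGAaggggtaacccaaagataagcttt
The site 60.1 kb downstream matched the core exactly, the only exact match among the 18 sites, while 4.27% and 4.63% of all listed G1E-ER4 peaks and 4.53% and 5.4% of listed G1E peaks held it. The other two flank sites matched with 1 mismatch, and no other locus site did. This looser search was chosen after the sequences were seen, and 13.5% and 15% of all listed G1E-ER4 peaks and 15% and 17.2% of listed G1E peaks met it. Over the locus, 1 of 18 sites with the exact core and 3 of 18 with up to 1 mismatch lay near these shares of all listed peaks. Binding of CTCF was not measured.

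A GATA word lay in 14 of the 18 sites, against 32.6% and 27.2% of all listed G1E-ER4 peaks, 26.3% and 30% of listed G1E peaks, and 20% of the promoters of the 22380 protein-coding genes, cut to the same length. In the control region 5 of the 6 sites had one, with 4 words each at 12.7 and 24.1 kb, 2 each at 6.0 and 17.6 kb, 1 at 7.9 kb and none at 29.8 kb. The NF-E2 word was in 2 of the 18 sites, those at 6.0 and 7.9 kb, against 0.938% and 1.12% of listed G1E-ER4 peaks and 1.01% and 1.27% of listed G1E peaks. The KLF word CCACACCC was at Hbb-b1 alone, against 2.8% and 3.4% of listed G1E-ER4 peaks and 3.38% and 3.66% of listed G1E peaks. The other KLF word, CCGCCCC, was at none of the 18 sites, against 5.99% and 10.2% of listed G1E-ER4 peaks and 8.77% and 7.67% of listed G1E peaks.

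E-box words, bound by Tal1 and related factors, were in 10 of the 18 sites and in all 6 control region sites, against 43.7% and 49.2% of listed G1E-ER4 peaks and 48.2% and 45.4% of listed G1E peaks. The composite motif, the bases CTG followed at a short distance by a GATA word, does not need the full E-box CAGNTG. This composite was in 5 sites, among them those at 6.0, 17.6 and 24.1 kb in the control region. It was in 3.27% and 3.03% of listed G1E-ER4 peaks and 3.23% and 3.58% of listed G1E peaks. The AP-1 word was in 3 sites, at 6.0 and 7.9 kb, where it is part of the NF-E2 word, and in the flank site 60.0 kb upstream, against 6.65% and 6.6% of listed G1E-ER4 peaks and 6.8% and 7.16% of listed G1E peaks. A word is a match of letters in these windows and not a bound site.

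How well tags could be placed differed between the genes. Tags were 20 bases long, and tags with several places in mm9 were kept at their best one, per the series' design text. In mm9, Hbb-b1 and Hbb-b2 are near copies, with 440 of 441 coding bases identical. Of the 250 promoter bases printed above, 175 (70%) are the same between them, aligned over their whole length. All values of this paragraph are those of mm9, and the adult genes of the cells' own strain may differ. Of the 20-base words in the gene, 26.2% of Hbb-b1 and 21.3% of Hbb-b2 occur once in mm9, against 96.8% of Hbb-y and 95.2% of Hbb-bh1. The 200 bp around the Hbb-b1 site had 97.8% of its words once in the genome, so tags that match mm9 there can be placed around the summits. Around the 2 Hbb-b2 summits the share was 30.4% at the G1E-ER4 peak and 0% at the G1E peak, and those 2 peaks cannot be given to Hbb-b2 with certainty. At the peak upstream of Hbb-bh1 in G1E list 2 it was 40.9%. All but one of the control region sites had between 93.9% and 99.4%, the exception being 60.2% at 29.8 kb. Over 1000 bp either side of the start, the share was 53.2% at Hbb-b1 and 51.2% at Hbb-b2, against 98.3% at Hbb-y and 92.2% at Hbb-bh1. The Hbb-b1 peaks of G1E-ER4 list 2 and G1E list 2 reached into the gene body, where most words are repeated.

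**Figure D4:**
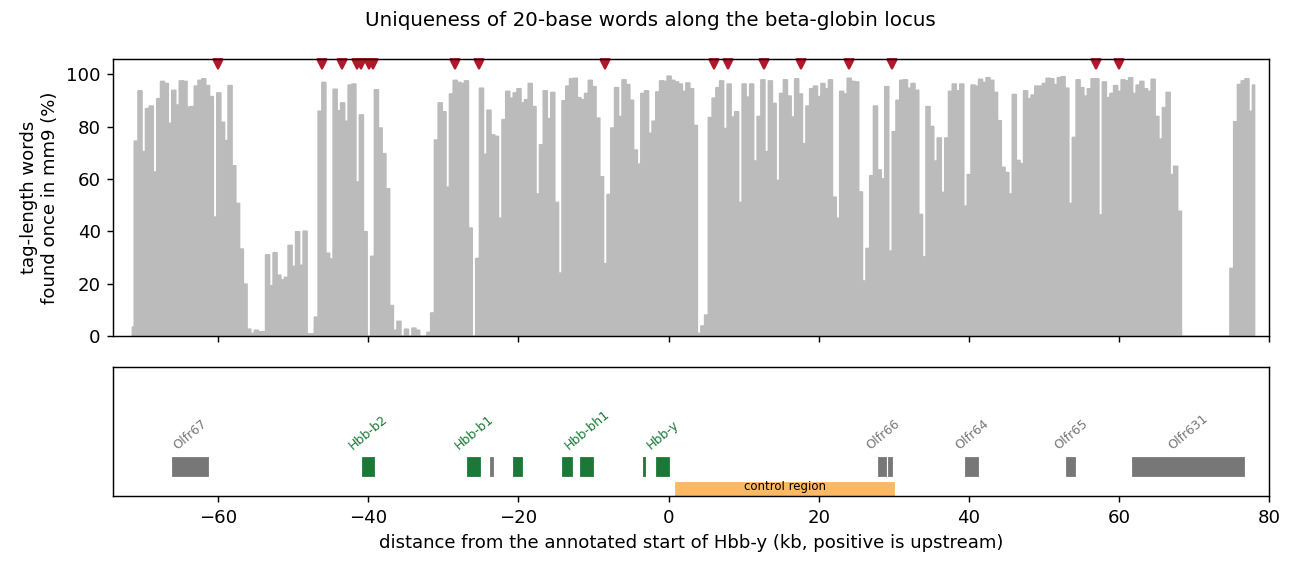
Share of 20-base words that occur once in mm9, in percent per 500 bp (vertical axis), along the window in kb from the Hbb-y start (horizontal axis, positive upstream), with triangles at the 18 sites. The share falls at the bodies of Hbb-b1 and Hbb-b2, where 26.2% and 21.3% of words are found once, and is near 100 over most control region sites.

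A site missing from a list was not necessarily without a call. Peak names in the lists carry running numbers in coordinate order, and the highest numbers add up to 423713 and 883170 in the G1E-ER4 lists, compared with 356955 and 443092 in the G1E lists. If each number was 1 call, the 100000 listed peaks were 23.6% and 11.3% of calls in the G1E-ER4 lists, compared with 28% and 22.6% in the G1E lists. Within the locus the numbers skipped 9 and 26 places in the G1E-ER4 lists, compared with 8 and 11 in the G1E lists. Between the Hbb-b1 peak and the 6.0 kb site, the stretch that holds the embryonic genes, 4 and 9 numbers were skipped in the G1E-ER4 lists. In G1E list 2 the same stretch skipped 3 and 1, on either side of the peak upstream of Hbb-bh1. In G1E list 1, 7 were skipped between the flank site 46.2 kb downstream and the 6.0 kb site, a stretch that also includes the adult genes. In G1E-ER4 list 1 a single number was skipped between the 12.7 kb site and the flank site 60.0 kb upstream, so at most 1 of the 4 sites in between can have had an unlisted call there. In G1E-ER4 list 2, 3 were skipped between the 17.6 and 29.8 kb sites, the stretch with the 24.1 kb site. Weaker calls may therefore have existed at the embryonic genes in either state, and at Hbb-b1 in G1E list 1, below the listed 100000.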

How the data were processed

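DNase-seq peak lists of 1 G1E-ER4 estradiol sample and 1 G1E sample, 2 lists each, were used. Per the series' design text, DNase I ends were sequenced as 20-base tags, mapped to mm9 with Bowtie with the best place kept for tags that map more than once, converted with SAMtools, smoothed with F-seq, and peaks were called by a gamma fit. The sources used here give no versions, thresholds or read numbers. Lanes were combined for each replicate list, so the lists were not pooled.

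The authors deposited for each peak a signal (F-seq density) and the offset of its summit. The deposited score was 0 and the p and q values -1 throughout and were not used. Signal was ranked within each list, ties taking the mean rank. Summits within 300 bp were chained into sites over the whole genome. Genes were GENCODE vM1, and a start peak has its summit within 1000 bp of a start. Unlisted peaks were set at percentile 0 in differences. Motifs were searched in 200 bp. Coordinates are 1-based. Site making and calls were tested on simulated data. RefSeq promoters were matched to mm9 for 3 of the 4 genes, and the Hbb-bh1 promoter is not used here. Python 3.11.15, pandas 2.3.3, NumPy 2.4.6, Biopython 1.88 and matplotlib 3.10.9 were used.

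With 1 sample per state no test was run, and precision is shown by both lists of a state and by leaving out each list. Named were the 4 member genes, other genes of the window with a start peak, and each control region site. The members, motif lists and rules were chosen with earlier results of these data known. Alternatives were other chaining distances, overlap in place of summits, the top 50% of each list, percentiles within chromosome 7, other start and control region limits, a wider motif window, and a CTCF search with 1 mismatch, the last chosen after seeing the data.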

Additional observations from a re-analysis of the deposited data

How the results depend on the processing

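Of 89 values recomputed under alternatives for 23 results, 78 kept their direction and stayed within 1.5 times the main count or, for a difference, within the SD between lists. That SD was wide, at 30.9 points for Hbb-b1, 41.3 for Hbb-b2 and 29.4 for the control region. Leaving out a list cannot shift the Hbb-b1 or Hbb-b2 difference by more than its SD, which comes from the same lists. Those values could therefore only keep or reverse their direction, and their staying within the SD is no sign of stability. Of the 78, 16 were differences at the embryonic genes, which were 0 in every setting. With the top 50% of each list alone, the window held 4 peaks in G1E-ER4 list 1 in place of 8, the control region 3 in G1E list 1 in place of 5, and the sites lower in G1E-ER4 were 2 in place of 4. Leaving out each list in turn gave 2 to 5 sites higher in G1E-ER4, with 5 without G1E-ER4 list 1. The sites lower ran from 4 to 13, with 7 without G1E-ER4 list 2 and 13 without G1E list 1. The median control region difference ran from -48.6 to 5.13 points and reversed to 5.13 without G1E-ER4 list 1. The Hbb-b1 difference ran from 30.2 to 91.9 points, and that of Hbb-b2 from -14.6 to 62.6, reversing to -14.6 without G1E-ER4 list 2. With a list left out, a state rests on 1 list and more sites meet the call rule by construction, and the genome share was not computed for these settings. In 400 bp windows the AP-1 word was in 5 sites in place of 3 and CCACACCC in 2 in place of 1. With 1 mismatch allowed, a search chosen after seeing the data, the CTCF core was in 3 sites in place of 1. For the remaining changes the cause was not tested. No paired analysis was possible because each state was 1 sample and no label pairs the lists. Read depth is unknown, the mm9 reference and the strain 129 of the cells differ, and a peak below the listed 100000 cannot be seen.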

Other observations

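On chromosome 7 as a whole, of 4415 sites held by both lists of a state, 35.8% were higher in G1E-ER4 and 22.6% lower, against 2 higher and 4 lower of the 10 such sites of the locus. That chromosome had 9071 and 9010 listed peaks in the G1E-ER4 lists, compared with 6634 and 6323 in the G1E lists. Locus peaks were also narrower than the rest in each list: the median width in the locus was 410.5 and 590 bp in the G1E-ER4 lists, with 579 and 836 bp over all their peaks. It was 390 and 597 bp in the G1E lists, with 520 and 646 bp over all their peaks. These differences were not tested.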
